A study of Triticum aestivum with 4 samples.

Results

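The miRNAs described here are the sulfate and phosphate starvation families miR395, miR399, miR827 and miR2111 in leaves of winter wheat. Every name that the table of known miRNAs files under these 4 families was taken, which gave 6 names (miR395a, miR395b, miR399b, miR827, miR2111a and miR2111a-3p) out of 371 distinct names in 289 families. Wild-type, untreated plants of Shimai 22, which the study describes as a semi-winter variety, were grown in a field under natural weather. Leaves were taken at the three-leaf stage in autumn, at winter dormancy, at spring green-up and at jointing in the following spring. At each stage the RNA of 3 collected samples was mixed into 1 small RNA library, so a stage and its library cannot be told apart and no difference below has a replicate check. No nutrient supply was varied, and season, plant age and the leaves that were uppermost changed together with stage.

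Plants meet a shortage of sulfate or phosphate partly through these miRNAs, which pair with messenger RNAs of uptake and storage genes and lead to their cleavage. In Arabidopsis, miR395 is induced when sulfate is short and acts on ATP sulfurylases and a low-affinity sulfate transporter. In the same plant, miR399 is induced when phosphate is short, moves from shoot to root in the phloem and acts on PHO2, a ubiquitin-conjugating enzyme that limits phosphate uptake. The targets of miR827 are NLA, a ubiquitin ligase that acts on phosphate transporters, in Arabidopsis, and SPX-MFS genes, which encode vacuolar phosphate transporters, in rice. For miR2111 the known targets are F-box genes with Kelch repeats, and it too is induced by phosphate shortage in Arabidopsis. Those targets are paired by the 5p strand of its hairpin, while 1 of the names listed here carries the suffix 3p and the other names no strand, so the values of miR2111 below may not be those of the strand with these targets.

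The listed sequences are shown because their relation to each other bears on how the values can be read. They were taken from the sequence column of the supplementary table of known miRNAs and are written 5′ to 3′, with the seed, bases 2 to 8, in capitals.
miR395a: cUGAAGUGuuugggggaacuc
miR395b: uGAAGUGUuugggggaacuc
miR399b: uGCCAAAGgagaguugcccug
miR827: uUAGAUGAccaucagcaaaca
miR2111a: gUCCUUGGggugcagauuacc
miR2111a-3p: gUCCUCGUguugcauucccu

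The miR395 pair is a nested pair. The 20 nt of miR395b are positions 2 to 21 of miR395a without a mismatch, so the names differ by a single base at the 5′ end, and this shifts the seed by 1 base. Reads of one locus could therefore be listed under either name. The sequences under miR2111 are not near-identical. Compared from the first base without gaps, miR2111a and miR2111a-3p shared 11 of 20 bases, the first 5 of them in a run, and differed by 9 substitutions (positions counted from the 5′ end of miR2111a: U6C, G8U, G10U, G15U, A16U, U17C, U18C, A19C and C20U).

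No seed was shared between members, and no other of the 508 listed sequences (known miRNAs, predicted miRNAs and the miRNA* strands of the latter) had the same bases at positions 2 to 8 as any of the 6. Apart from the miR395 pair, no member overlapped another listed sequence over 18 nt or more with 2 mismatches or fewer. None of the 82 precursors of predicted miRNAs held a member sequence, on either strand, even when 2 mismatches were allowed. The first base was U for miR395b, miR399b and miR827, C for miR395a and G for both miR2111 names. In Arabidopsis a first base U is favoured by the effector protein AGO1. Over all 371 known names, 42.6% began with U, 18.3% with C and 15.4% with G. The lengths, 20 nt for miR395b and miR2111a-3p and 21 nt for the others, were those of 5.93% and 49.6% of all names.

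Levels are given in TPM, the study's word for the deposited RPM values, which are reads scaled to the mapped reads of their library. The smallest library held about 18100000 mapped reads and the largest about 21800000, so 1 read was worth 0.0458 to 0.0552 TPM. Reads were estimated from these totals, and every interval below is a 95% interval of counting error alone. PCR copies are not independent molecules, and the intervals say nothing of the difference between plants. Between 240 and 294 known names were listed above 0 in a library, the smallest values listed in the 4 libraries were 0.2 to 0.5 TPM, and a listed 0 may stand for a lower level.

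**Figure D1:**
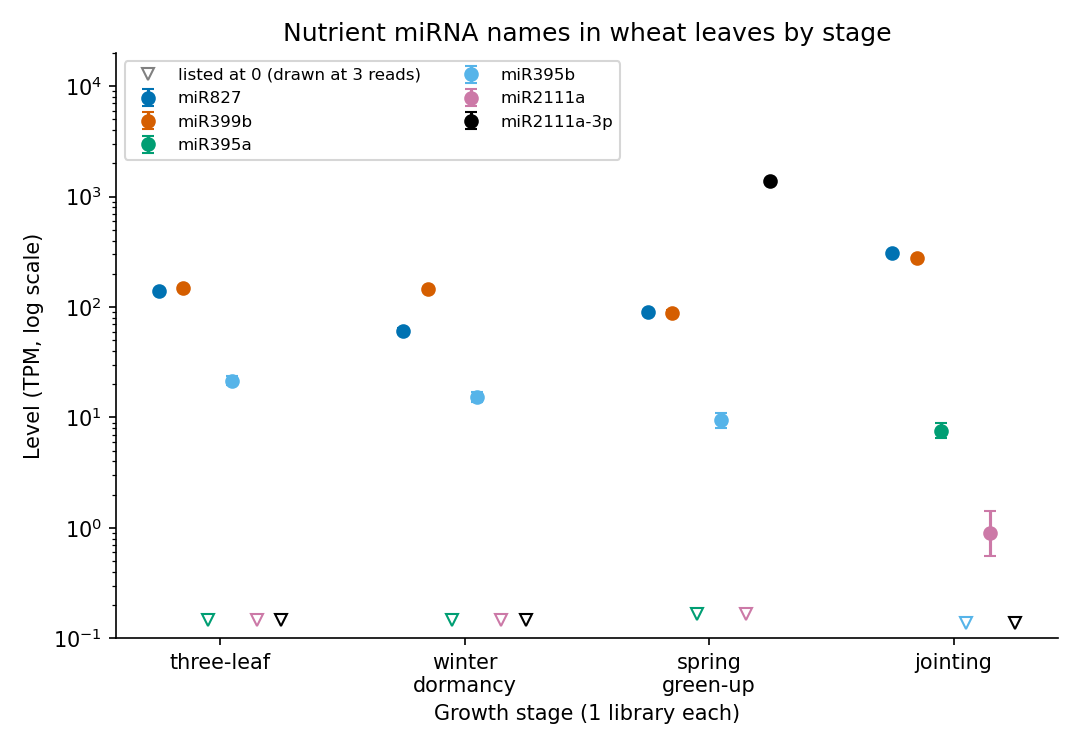
Level in TPM (log axis) of the 6 names at the 4 growth stages, 1 library each, with 95% Poisson intervals of counting error. Open triangles, drawn at the value of 3 reads, mark names listed at 0. miR827 and miR399b are above 0 at every stage and highest at jointing, miR395a and miR395b are never listed together, and miR2111a-3p stands at 1385.5 TPM at spring green-up alone.

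miR827, the regulator of phosphate transporters, had the widest range among the members listed at all stages. It was listed at 138.6 TPM in the three-leaf library (95% interval 134 to 144), 60.7 TPM at winter dormancy (57.4 to 64.2), 89.8 TPM at spring green-up (85.5 to 94.3) and 310.7 TPM at jointing (303 to 318). The winter library was thus the lowest and the jointing library the highest, and no interval overlapped that of another stage. These values rest on 1247 to 6783 estimated reads.

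In winter miR827 was lower than at the three-leaf stage by a log2 of -1.19 (-1.29 to -1.09), or 2.28-fold. Of the 183 known names above 0 in both libraries and over 5 TPM in 1 or both, 8 had a lower log2 fold than this, and the median of the 183 was 0.03. It was 1.48-fold higher at spring green-up than in winter (1.37 to 1.59), a log2 of 0.57 that became 1.25, past 2-fold, when values were scaled to all listed miRNAs other than miR168. By median-of-ratios scaling this log2 was 0.67. At jointing miR827 was 3.46-fold higher than at spring green-up (3.28 to 3.65). Jointing exceeded the three-leaf stage by 2.24-fold (2.14 to 2.34) and winter dormancy by 5.12-fold (4.82 to 5.44).

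Of the 179 known names listed above 0 at all 4 stages, 30 had a wider range over the stages than miR827, whose highest value was 5.12 times its lowest, against a median of 2.19. Jointing was the highest stage for 60 of the 179 (33.5%), and 21 of them (11.7%) had their lowest value in winter, as miR827 did. Among all known names miR827 ranked 65th at the three-leaf stage, 97th in winter, 72nd at spring green-up and 42nd at jointing.

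The spring green-up value of miR827 was below that of the three-leaf stage, by a log2 of -0.63 (-0.72 to -0.54). By median-of-ratios scaling the log2 was -0.55, but it turned to 0.03 when values were scaled to all listed miRNAs other than miR168. Of all known miRNA levels added up, the miR168 family took 37.1% in the three-leaf library and 60.4% in the spring green-up library. Its part in the miR827 difference was not tested.

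miR399b, the name under which the PHO2 regulator was listed, also had its highest value at jointing but did not share the winter minimum. The values were 148.6 TPM in the three-leaf library (143 to 154), 146.9 TPM at winter dormancy (142 to 152), 88.9 TPM at spring green-up (84.6 to 93.4) and 276.8 TPM at jointing (269.9 to 283.9). As deposited, the autumn and winter libraries did not differ beyond counting error, with a fold of 0.989 and an interval of 0.940 to 1.04. On that scale a difference of more than about 1.06-fold lower in winter lay outside the counting interval. Scaled to the sum of all listed miRNAs, winter was lower by a log2 of -0.26, and without miR168 by -0.05. As deposited, the lowest library was that of spring green-up.

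In miR399b, spring green-up was lower than the three-leaf stage by a log2 of -0.74 (-0.83 to -0.65) and lower than winter by a log2 of -0.72 (-0.81 to -0.64). Scaled to all listed miRNAs other than miR168, these were log2 folds of -0.09 and -0.04, so that on this scale spring green-up was no longer clearly below the earlier stages. By median-of-ratios scaling they were -0.67 and -0.62, near the deposited values. The step from spring green-up to jointing was 3.11-fold upward (2.95 to 3.29). This step was close to that of miR827, whose interval of 3.28 to 3.65 overlapped it at the edge. Jointing stood 1.86-fold above the three-leaf stage (1.78 to 1.95) and 1.88-fold above winter dormancy (1.80 to 1.97), both short of 2-fold. Scaled to the sum of all listed miRNAs, the same differences were log2 folds of 1.02 and 1.28, past 2-fold. By median-of-ratios scaling they were 0.93 and 0.97, short of it. As deposited, 18 of the 179 names listed at all stages (10.1%) were highest at jointing and lowest at spring green-up, as miR399b was.

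**Figure D2:**
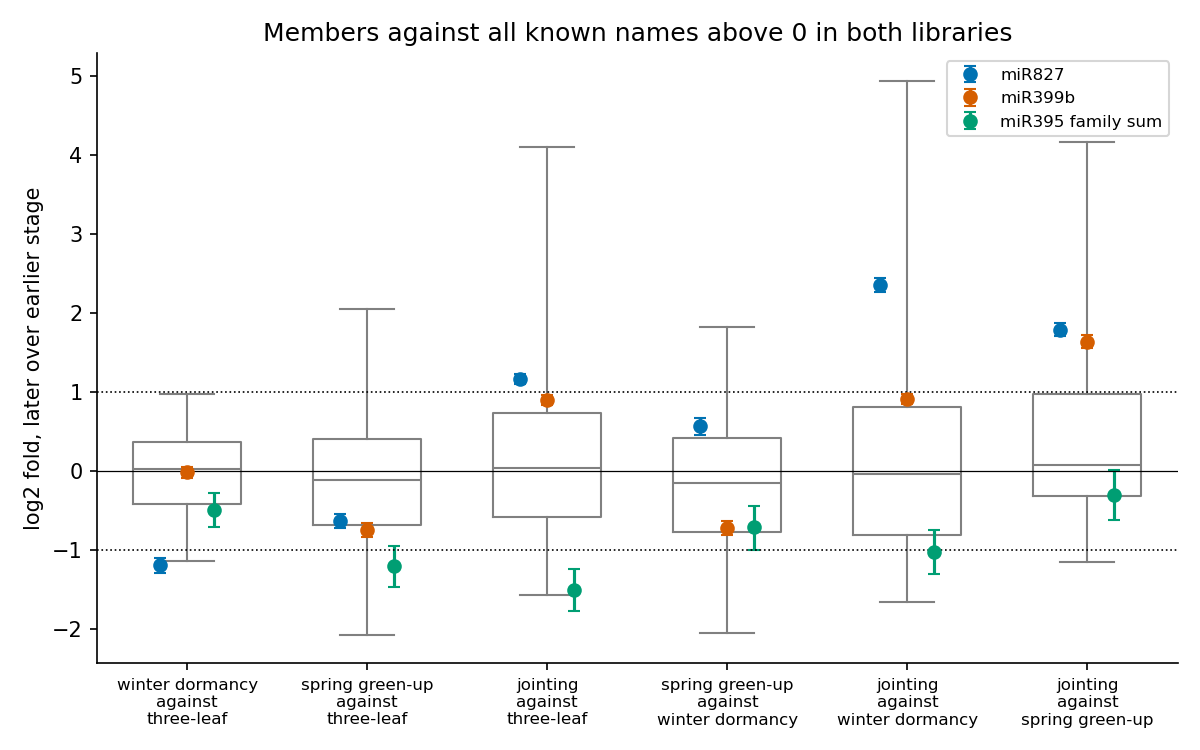
log2 fold (later over earlier stage) for the 6 pairs of stages; points with 95% counting intervals are miR827, miR399b and the sum of the miR395 names, and grey boxes show the quartiles of all known names above 0 in both libraries over 5 TPM in 1 or both, with whiskers to the 5th and 95th percentiles. Dotted lines mark 2-fold. Between three-leaf and winter the log2 fold of miR827 (-1.19) lies below the lower whisker, while that of miR399b (-0.02) lies near the median of all names.

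Set against each other within a library, where scaling has no part, miR827 and miR399b had nearly equal read counts except in winter. There were 0.933 reads of miR827 for each read of miR399b at the three-leaf stage (0.886 to 0.982), 0.413 at winter dormancy (0.386 to 0.441), 1.01 at spring green-up (0.942 to 1.08) and 1.12 at jointing (1.08 to 1.16). The winter ratio was the lowest and its interval met none of the others. The intervals of the three-leaf and spring green-up libraries overlapped, and the jointing ratio lay just above that of spring green-up. Reads of different miRNAs are captured with unequal efficiency, so a ratio is read across the stages and not as a ratio of molecules.

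**Figure D3:**
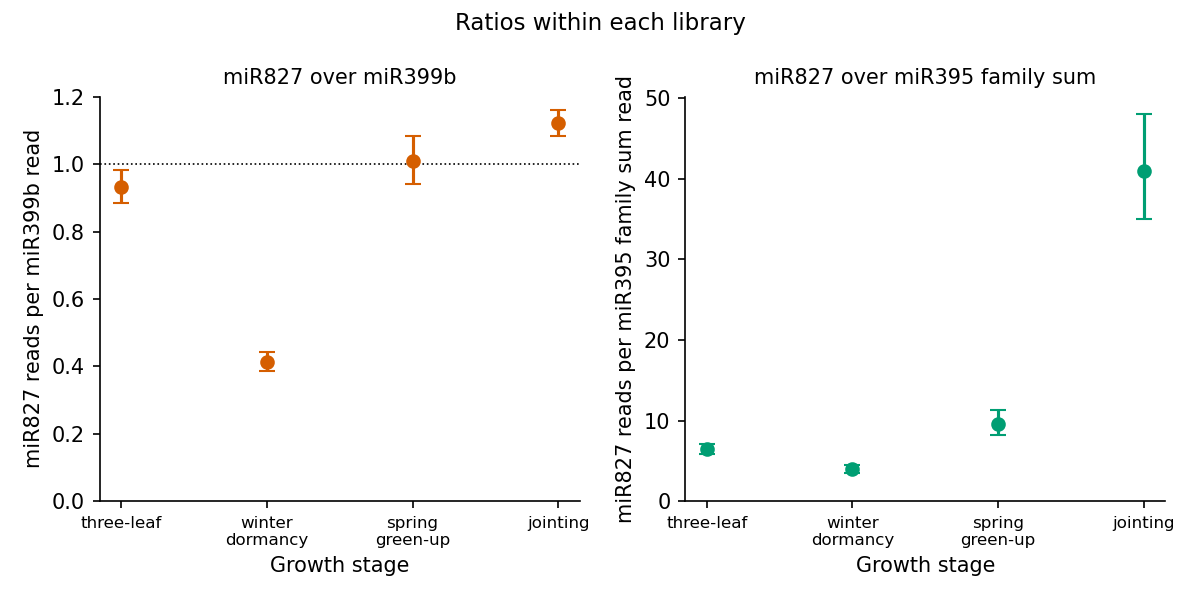
Estimated reads of miR827 per read of miR399b (left) and per read of the summed miR395 names (right) in each of the 4 libraries, with exact 95% counting intervals. The left ratio is 0.413 in winter and 0.933 to 1.12 at the other stages, and the right ratio goes from 3.94 in winter to 40.9 at jointing. The jointing value on the right rests on miR395a and the others on miR395b.

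miR395, the sulfate family, was the least abundant of the 3 families listed in every library and went the other way. Under miR395b the values were 21.6 TPM in the three-leaf library (19.6 to 23.7), 15.4 TPM at winter dormancy (13.7 to 17.2) and 9.4 TPM at spring green-up (8.02 to 10.9), and jointing was listed at 0. Under miR395a the value was 7.6 TPM at jointing (6.49 to 8.85), and the first 3 stages were listed at 0. The names were thus never above 0 in the same library, and 1 of them was above 0 in every library. These levels rest on 166 to 438 estimated reads.

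Over the known table, 52 pairs of names had sequences that were identical, nested or overlapping by 18 nt or more with 2 mismatches or fewer. For 7 of these pairs the names were never listed together, and for 4 of these, the miR395 pair among them, every stage listed 1 name or the other. It was 1 of the 2 nested pairs. Since the reads could be divided between the names, the miR395 family is described by the sum of both. The library in which the name changed was that of jointing.

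Summed over both names, the levels of the successive stages were 21.6, 15.4, 9.4 and 7.6 TPM. As deposited, each later stage was lower than the one before, and the difference between spring green-up and jointing was within counting error (fold 0.809, 0.651 to 1.01). Winter dormancy was 1.40-fold below the three-leaf stage (1.21 to 1.63), spring green-up 2.30-fold below it (1.92 to 2.76) and jointing 2.84-fold below it (2.37 to 3.41). The interval for spring green-up spans the 2-fold line. Scaled to all listed miRNAs other than miR168, the spring green-up difference was a log2 of -0.54 and the jointing difference -0.96, both short of 2-fold. On that scale the step from winter to spring green-up, a log2 of -0.71 as deposited, was -0.02. By median-of-ratios scaling the differences from the three-leaf stage were -1.12 at spring green-up and -1.47 at jointing, and the step from winter was -0.61.

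Of the 182 known names above 0 at both the three-leaf and the jointing stage and over 5 TPM at 1 or both, 15 had a lower log2 fold than the miR395 sum, whose log2 fold was -1.51, and their median was 0.04. Of the 179 names listed at all stages, 13 (7.26%) were lower at every later stage. As a family miR395 ranked 119th of 194 listed families at the three-leaf stage and 173rd of 240 at jointing. For each read of the miR395 names there were 6.42 reads of miR827 at the first stage (5.81 to 7.12), 3.94 at winter dormancy (3.49 to 4.48), 9.55 at spring green-up (8.17 to 11.3) and 40.9 at jointing (35.0 to 48.0). For miR399b this count went from 6.88 at the first stage to 36.4 at the last, so both phosphate miRNAs stood farthest above miR395 at jointing. The miR395 reads at jointing were listed under miR395a and those of the other stages under miR395b. Whether unequal capture of these sequences has a part in the jointing ratios, or in the lower jointing sum, was not tested.

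As listed, miR2111 was almost entirely a matter of 1 name in 1 library. miR2111a-3p was listed at 1385.5 TPM at spring green-up (1368 to 1403), on 25116 estimated reads, and at 0 at the three-leaf stage, winter dormancy and jointing. At spring green-up it was the 18th most abundant known name and made up 0.715% of all known miRNA levels added up. miR2111a was listed at 0.9 TPM at jointing (0.560 to 1.41), on 20 estimated reads, and at 0 elsewhere. Whether a listed 0 means that the miRNA was absent or that its reads were not listed under this name was not tested, and no fold is given against one.

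Listing at a single stage was common in the table, at 110 of the 371 names (29.6%), of which 15 were listed only at the three-leaf stage, 18 only in winter, 18 only at spring green-up and 59 only at jointing. The level was not common. miR2111a-3p was the only one of the 110 above 1000 TPM, and the median of the 18 names listed only at spring green-up was 27.65 TPM. The next names of that library were miR8742a at 397.5 TPM and miR8030-5p at 81.9 TPM. Among the 59 names listed only at jointing, the highest was miR3441-5p.1 at 957.6 TPM, followed by miR5240 at 844.4 TPM and miR8135 at 688.4 TPM, and miR395a and miR2111a ranked 23rd and 47th. Without miR2111a-3p the members summed to 308.8, 223.0, 188.1 and 596.0 TPM from the first to the last stage, and with it the spring green-up sum was 1573.6 TPM.

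**Figure D4:**
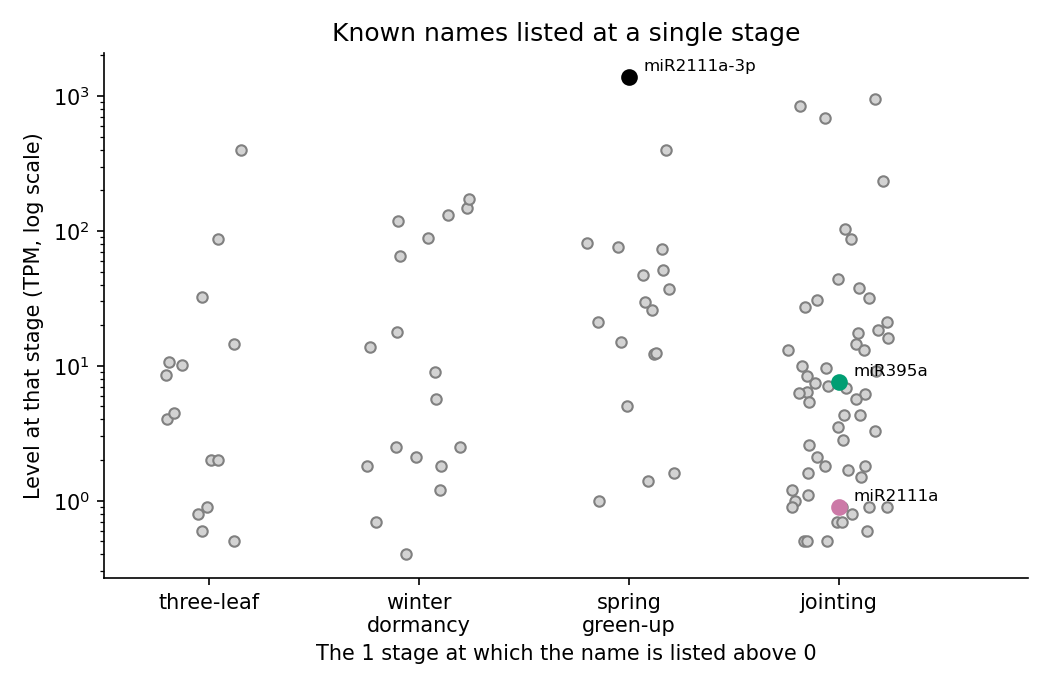
Known names listed above 0 at 1 stage only, placed at that stage, with their level in TPM (log axis); each point is a name and the members are coloured. miR2111a-3p, at 1385.5 TPM, is above all the other 109 names, while miR395a (7.6 TPM) and miR2111a (0.9 TPM) lie within the cloud of the jointing library.

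A name was counted as past the rule when its level was over 5 TPM in 1 or both libraries of a pair and differed by more than 2-fold between them. The limits of fold and level are those of the study, which also required a p-value and took the level over any of the 4 stages. Values under 3 reads were first set to 3 reads. Between winter dormancy and the three-leaf stage 1 of the 6 names was past it, miR827, lower in winter, while 16.4% of all known names were. Between spring green-up and the three-leaf stage 2 names were, miR395b lower and miR2111a-3p higher, against 28.0% of all names. Between spring green-up and winter dormancy the only name was miR2111a-3p, against 30.2%.

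With jointing as the later stage the counts were larger. Jointing against the three-leaf stage gave 3 names, miR827 and miR395a higher and miR395b lower, against 39.4% of all names, and jointing against winter dormancy gave the same 3 names, against 40.2%. Jointing against spring green-up gave 5 names, miR827, miR399b and miR395a higher and miR395b and miR2111a-3p lower, against 35.6%. Where a pair with a listed 0 was left out, 2 names remained in this last comparison, miR827 and miR399b. Of the 132 known names past the rule in it, 78 had a listed 0 and would be left out as well. Summed over families, 3 of the 4 families were past the rule there, against 35.6% of the 289 families, and 2 of the 4 were so at jointing against the three-leaf stage, against 38.8%. In winter against the three-leaf stage the members' share, 16.7%, was that of the table. The counts with jointing include both miR395 names, where the entry of one replaced that of the other.

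Other families known to respond to nutrient supply were taken as a list, with copper miRNAs (miR397, miR398, miR408, miR528 and miR857), nitrogen-responsive miRNAs (miR169, miR393, miR444, miR826 and miR5090) and further phosphate miRNAs (miR778 and miR828). The table listed 7 of these 12 families. At jointing against the three-leaf stage 5 of the 7 were more than 2-fold higher and none was more than 2-fold lower. Of all family sums, 24.2% were higher by this rule. The list was chosen with earlier results of these data known. The study had already described names of several of these families as induced at jointing in the same libraries. The share on the list therefore describes these families only, and whether nutrient families are enriched was not tested. The largest folds were the 22.8-fold of miR528, which acts on copper proteins in grasses, from 22.3 to 508.4 TPM, and that of miR397, which acts on laccases, from 13.8 to 82.8 TPM. Of the miR397 sum at jointing, 31.7 TPM was that of miR397-3p, a name listed at that stage only. Its place above miR393, which was 4.63-fold higher, rests on that name. In the same comparison miR827 was 2.24-fold higher and miR399b 1.86-fold higher. Of the listed families, only miR169 and miR444 were not highest at jointing. Among the members' families, miR395 and miR2111 were not highest there either, the latter as listed.

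The stage profile of each member was set beside those of 204 known and predicted names listed at all stages and above 5 TPM somewhere, by the largest difference over the 4 stages between log2 values centred on their own mean. The most like miR827 were miR390-3p (largest difference 0.24), miR393b-3p (0.33) and miR408d (0.59), against a median of 1.59 over the 204 names. All 3 were far less abundant, with highest values of 10.4, 10.9 and 5.6 TPM at jointing. The most like miR399b were miR5384-3p (0.32), novel_miR1737 (0.32) and novel_miR810 (0.38), against a median of 1.18.

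For the miR395 sum the most like were novel_miR1356 (0.07), novel_miR1202 (0.18) and miR1877 (0.20), against a median of 0.95. The sequences of novel_miR1356 and novel_miR1202 overlap, so they may share reads and are not separate instances. novel_miR1202 was listed at 2359.8, 1921.9, 1208.2 and 1012.5 TPM from the first to the last stage. Likeness over 4 libraries is a description of these libraries only.

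**Figure D5:**
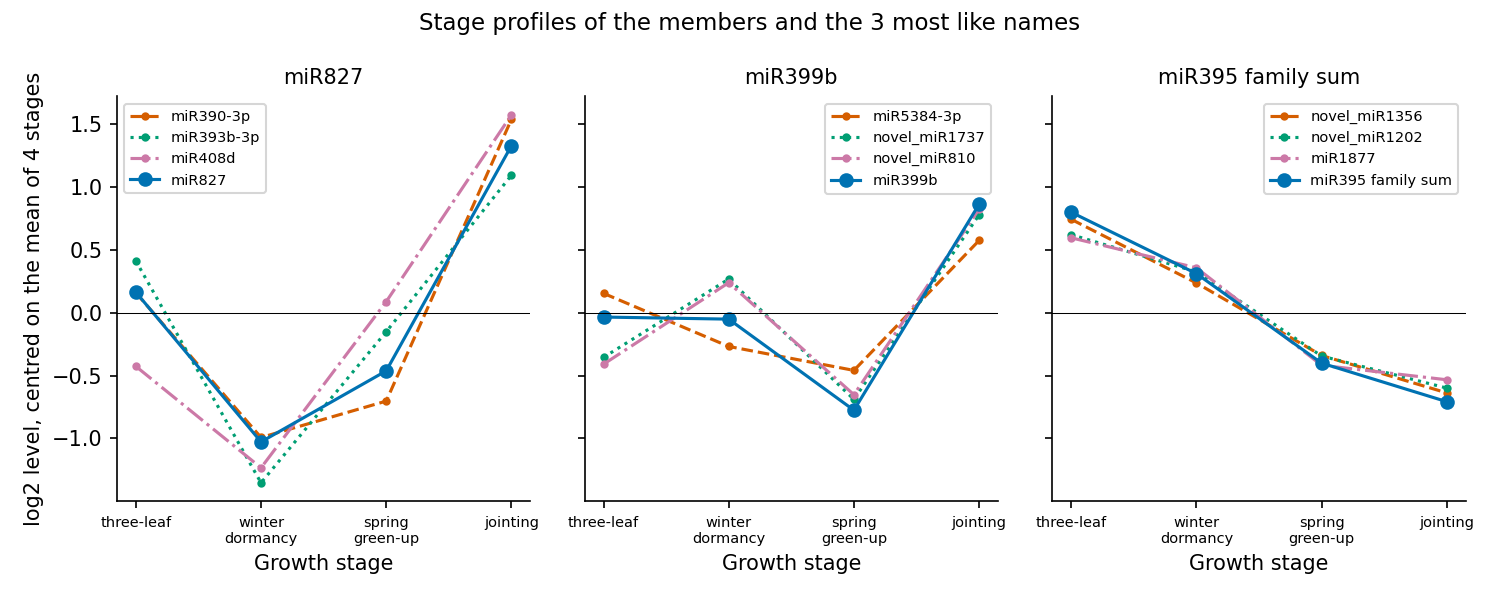
log2 level of miR827, miR399b and the sum of the miR395 names at the 4 stages, each centred on its own mean, with the 3 most like names in dashed or dotted lines. miR827 and its most like names are lowest in winter and highest at jointing, and the miR395 sum and its most like names are lower at each later stage.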

How the data were processed

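Small RNA of wheat leaves was sequenced on a BGISEQ platform, with 1 library per stage made from pooled RNA. The authors removed adaptors, poor reads and reads of other RNA classes, and named reads that matched plant miRNAs of miRBase with at most 2 mismatches. What was deposited is an RPM value with 1 decimal for each name, scaled by the authors to the mapped reads. The read totals, about 18100000 to 21800000 mapped reads, are those that the study gives. Names occurring in 2 rows with the same values were counted once, which left 371 of 373 rows.

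Reads were estimated as the value times the mapped reads. Levels have Poisson intervals, and folds and ratios have exact conditional binomial (Clopper-Pearson) intervals, all at 95%. No p-value is given, because a stage has 1 library. The calculation was tested on simulated data. Named were all members, the 3 most like names of each profile, the 2 nutrient families with the largest changes and the 3 highest single-stage names. Members and lists were chosen with earlier results of these data known. Alternatives were other scalings, pseudocounts of 1 or 0.1 TPM, other level and fold limits, zeros as missing, and summed names. Calculations ran in Python 3.11.15 (scipy 1.17.1, pandas 2.3.3, numpy 2.4.6, matplotlib 3.10.9).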

Additional observations from a re-analysis of the deposited data

How the results depend on the processing

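No paired analysis was possible because each stage has 1 library, and for the same reason no replicate could be left out. Scaling to all listed miRNAs other than miR168 used log2 factors of -0.66 at spring green-up and -0.54 at jointing against the three-leaf stage, which moves the median of all names upward by the same amounts. The log2 fold of miR827 between winter dormancy and jointing, 2.36 as deposited, was 2.72 when scaled to all listed miRNAs and 2.93 without miR168. That of miR399b between spring green-up and jointing, 1.64 as deposited, was 1.77 and 1.53, and that of the miR395 sum between the three-leaf and jointing stages, -1.51 as deposited, was -0.96 without miR168. Over 111 fold values of miR827, miR399b and the miR395 sum, 1 changed sign and 11 changed their side of 2-fold.

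The number of names past the rule at spring green-up against the three-leaf stage, 2, was 1 without miR168, above 50 TPM, with zeros as missing or at 3-fold. At jointing against the three-leaf stage or winter dormancy, the 3 names became 1 above 50 TPM or with zeros as missing. With overlapping names summed the count was 2 in both comparisons, and at 3-fold it was 2 against the three-leaf stage. It rose to 4 in both when scaled to all listed miRNAs, with or without miR168, or with no level limit. At jointing against spring green-up, the 5 became 3 above 50 TPM or with overlapping names summed, 2 with zeros as missing, and 6 with no level limit. At spring green-up against winter dormancy, the 1 name became 2 without miR168 and 0 with zeros as missing, and at winter dormancy against the three-leaf stage it became 0 at 3-fold. The shares of all known names past these altered rules are not given here, so these counts are not set against the table. Among the 146 known names past the main rule at jointing against the three-leaf stage, 78 had a listed 0. The ratios stayed within their counting intervals, and at least 2 of the 3 most like names of each profile were shared by every measure of likeness tried. Values under 10 TPM, as for miR395 in spring and miR2111a, rest on 20 to 170 reads.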
